A study of Mus musculus with 6 samples.

Results

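Respiratory complex I, the NADH dehydrogenase at the entry of the mitochondrial electron transport chain, was followed through its nuclear genes in an RNA immunoprecipitation of the translational regulator CPEB1. The members were all genes whose symbol starts with Nduf, without those marked as pseudogenes by -ps, which gave 49 of the 55376 genes in the count tables. They comprised 38 subunit genes, 8 assembly factor genes named Ndufaf, and 3 genes that the GENCODE annotation types as processed pseudogenes (Ndufa11b, Ndufs6b and Ndufb4c). The 38 subunit genes include Ndufa4, now known as a subunit of cytochrome c oxidase, and its paralogue Ndufa4l2, which leaves 36 genes of complex I itself.

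Satellite cells, the stem cells of skeletal muscle, came from C57BL/6 mice aged 3 months, were sorted by flow cytometry as CD31-, CD45-, Sca1- and Vcam1+, and were used freshly isolated (fiSCs). There were 6 libraries in 3 groups of 2: RNA precipitated with an antibody to CPEB1 (CPEB1 IP), RNA precipitated with control IgG, and input RNA that no antibody had touched. The labels give no transgene, deletion or treatment for any group, and the antibody is the difference they name. The study describes the precipitations as independent experiments and the libraries as biological replicates. The labels tie no library to an animal or a sort, so p-values cover the spread between these libraries, which may be partly technical.

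Complex I takes electrons from NADH and passes them to ubiquinone while pumping protons across the inner membrane. Its N module oxidizes NADH, its Q module reduces ubiquinone, and its membrane arm, with a proximal and a distal part, pumps. The core subunits carry the redox chemistry or the proton channels, and those of the membrane arm are encoded in mitochondrial DNA (mt-Nd genes), whereas accessory subunits surround the core, and assembly factors help to build the complex without staying in it. CPEB1 binds cytoplasmic polyadenylation elements (CPEs), short U-rich motifs in 3′ UTRs, and acts on poly(A) tail length and translation. Quiescent satellite cells are known for a low metabolic rate that rises as they leave quiescence.

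The libraries held from 1284716 counts on genes, in IgG, to 4941653, in CPEB1 IP, of which 2788 to 14727 fell on the 49 Nduf genes. The median Nduf gene had 47 and 58 counts in the IgG libraries, 156 and 182 in input and 230 in the deepest library, so the IgG values are the least precise. Levels are given as CPM, the count scaled to a library size normalized by TMM. The 9 satellite cell markers were detected in every library and summed to between 9510 and 12628 CPM, though Pax7, their defining factor, had 329 and 353 CPM in input and 80.8 to 92.7 in the precipitates. Myod1 went the other way, with 946 and 1062 CPM in input and 1910 to 2540 in the precipitates. In CPEB1 IP over input, 7 of the 9 had a negative log2 fold change. Sdc4 was the largest part of the sum, at 5231 to 7133 CPM in the precipitates and input. Markers of endothelial cells were at 119 and 125 CPM in input against 247 to 355 in the precipitates, those of immune cells at 21.4 and 31.9 against 54.6 to 68.4, those of fibro-adipogenic cells at 689 and 701 against 571 to 847, and those of myofibres at 486 and 553 against 202 to 322. Among the endothelial markers, Cldn5 had 8.50 and 16.3 CPM in input against 112 to 194 in the precipitates. Tek, alone of the 6, went the other way, at 77.0 and 87.8 against 57.5 to 75.6. In input most of the myofibre sum was Actn3, at 412 and 466 CPM against 58.3 to 133 in the precipitates. Acta1 had 30.2 and 35.6 against 56.8 to 94.3. The median log2 fold change of the myofibre markers tested was 0.72 in CPEB1 IP over input, with 6 positive and 2 negative. For the fibro-adipogenic markers it was 1.25, with 4 positive and 1 negative. Dcn had 73.0 and 78.7 CPM in input against 202 to 295 in the precipitates, and Dpt 382 and 451 against 185 to 313. Among the immune markers, Lyz2 had 9.51 and 10.1 against 16.7 to 47.7, while Cd68 overlapped input. The part of these cell types in the values below was not tested. Between precipitates and input, fewer cells of a type, less RNA per cell and what the precipitation recovers cannot be told apart.

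The CPEs of the assembly factor genes are shown first, because a larger share of them than of the subunit genes held one. TTTTAT or TTTTAAT (the DNA letters of UUUUAU and UUUUAAU), here called canonical, was searched on the sense strand of every annotated 3′ UTR, and neither motif contains the other. A canonical CPE was found in 14 of the 49 genes (28.6%), in 6 of 8 assembly factors (75%) and in 8 of 38 subunit genes (21.1%). The study's list of CPE-containing transcripts holds 9 motifs, which include both of these. Any of the 9 was found in 17 of the 49 genes, 7 of 8 assembly factors and 10 of 38 subunit genes. Sites are given with 8 bases on each side where the UTR holds them, the CPE in capitals, 5′ to 3′, in mm10 coordinates with GENCODE M21 transcripts.

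Ndufaf4, site 1, chr4:24902406-24902428, plus strand: gaggatctTTTTAATgttttaaa

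Ndufaf4, site 2, chr4:24902442-24902463, plus strand: ttaaataaTTTTATagaagaat

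Ndufaf4, site 3, chr4:24902648-24902669, plus strand: atacctgtTTTTATtttaggag

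Ndufaf4, site 4, chr4:24904796-24904817, plus strand: tgattggcTTTTATtggtagaa

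Ndufaf2, chr13:108052887-108052908, minus strand: gccaagatTTTTATgaaaaaga

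Ndufaf3, chr9:108565544-108565565, minus strand: tcccaaacTTTTATtgaaaaat

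Ndufaf6, chr4:11051078-11051096, minus strand: aatgaTTTTATgttgctca

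Ndufaf7, chr17:78947098-78947119, plus strand: gcttgaacTTTTATtcctcagt

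Ndufaf8, chr11:120100389-120100410, plus strand: tttcagacTTTTATatataaag

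The CPE of Ndufaf3 ended 15 bases before the end of its UTR, and the last of the 4 in Ndufaf4 ended 192 bases before it. Ndufaf1 held no motif of the longer list, and Ndufaf5 held one of that list but no canonical CPE. The 8 subunit genes with a canonical CPE were Ndufa2, Ndufab1, Ndufb2, Ndufb8, Ndufc1, Ndufc2, Ndufs4 and Ndufv2, the last being the only core subunit among them. For comparison with the assembly factors, the sites of Ndufv2 and of 2 membrane arm subunits that come up below read as follows.

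Ndufv2, site 1, chr17:66079158-66079179, minus strand: gttaaattTTTTATaagcttta

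Ndufv2, site 2, chr17:66079240-66079261, minus strand: catgtcatTTTTATcagtgaag

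Ndufb8, chr19:44548951-44548973, minus strand: gtacaagcTTTTAATtctagcac

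Ndufc2, chr7:97407717-97407738, plus strand: tttctgagTTTTATgggatttt

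The 3′ UTRs differed in length as well. The longest annotated 3′ UTR had a median of 216 bases in the 38 subunit genes, from 41 in Ndufa13 to 4012 in Ndufb2, and of 361 bases in the 8 assembly factors, against 1285 over the 10881 genes tested with a 3′ UTR. Of those 10881 genes, 66.9% held a canonical CPE and 74.4% held any of the 9 motifs. Among genes with a UTR over 100 and up to 300 bases the share was 22.3% of 1113 genes, beside 3 of 17 Nduf genes, and from there to 1000 bases it was 49.6% of 3083 genes, beside 5 of 13. All 5 Nduf genes with a UTR over 1000 bases held one, against 85.8% of 6376 genes. A match is a description of the letters and not a shown binding site.

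In input RNA, levels compared per length (FPKM, mean of the 2 libraries) were highest for Ndufa2 at 125, Ndufa1 at 98.6 and Ndufb6 at 82.6, all of them accessory subunits. The core subunits lay between 64.2 for Ndufs8 and 10.3 for Ndufs1. The mean input CPM of these genes were alike, at 113 and 112, on exon lengths of 1291 and 8086 bases. Among the assembly factors, Ndufaf8 had 21.7 FPKM and the other 7 between 2.12 for Ndufaf5 and 8.04 for Ndufaf4. The median over the 38 subunit genes was 27.6 and 39.5 FPKM in the 2 input libraries, and over the 8 assembly factors 4.53 and 6.11, so transcripts of the factors were several times less abundant for their length.

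**Figure D1:**
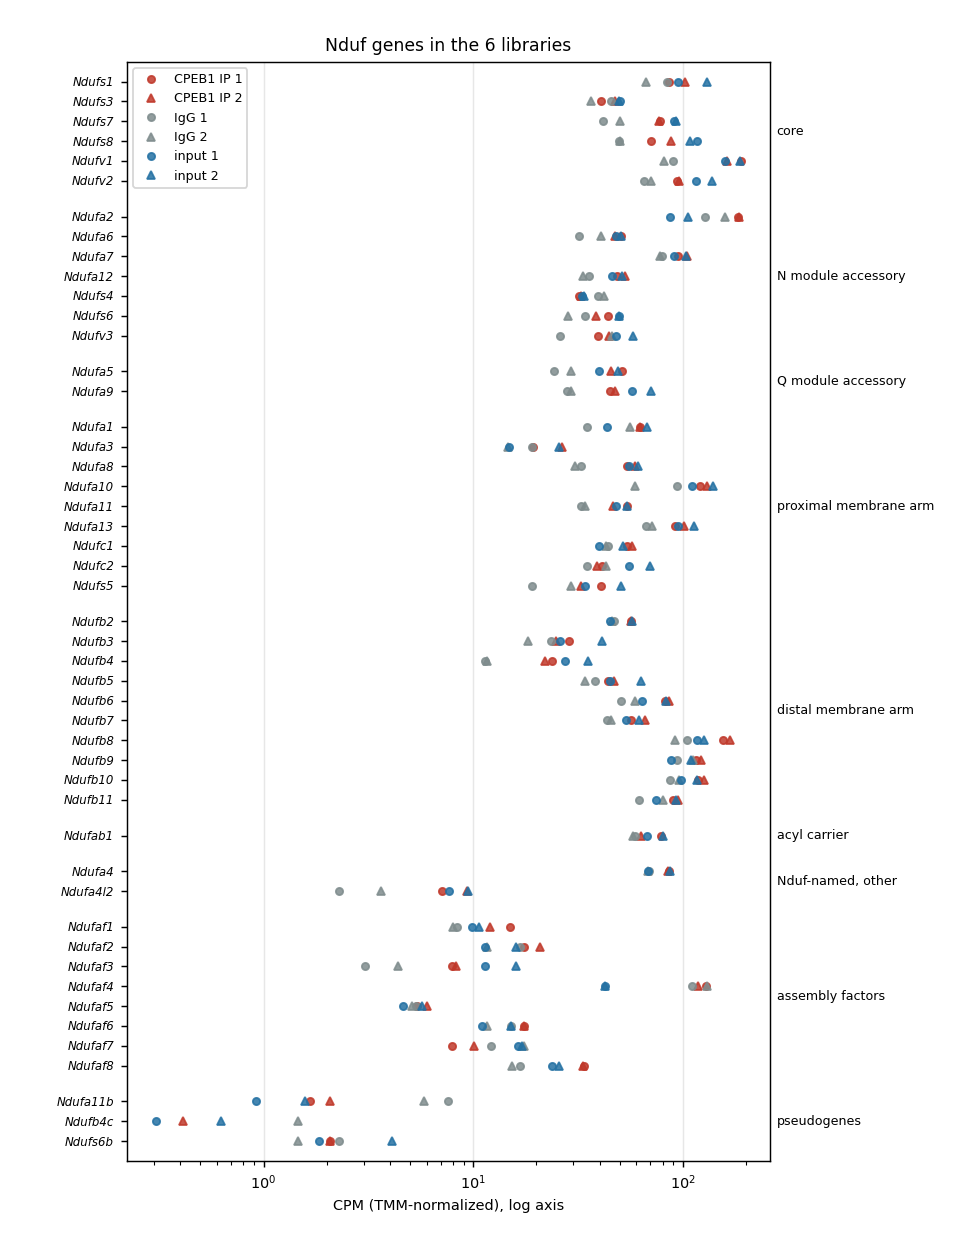
CPM (TMM-normalized, log axis) of 48 Nduf genes in the 6 libraries, ordered by role; circles are replicate 1 and triangles replicate 2, and a value of 0 is not drawn. For most subunits the IgG points lie to the left of the others, while Ndufaf4 and Ndufa2 have the input points at the left.

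Between CPEB1 IP and IgG, the comparison that asks which transcripts come down with CPEB1, 14 of 38 subunit genes and 1 of 8 assembly factors were higher in CPEB1 IP, none of them by more than 1.002 on the log2 scale. Of 47 Nduf genes that passed the filter on low counts, 15 were higher (background 14.7% of all 12124 genes tested) and 1 was lower (background 18.7%) at an adjusted p under 0.05 by edgeR's quasi-likelihood test. The median log2 fold change was 0.38 over the Nduf genes and -0.01 over all genes tested. Both CPEB1 IP libraries were above both IgG libraries in 34 of 38 subunit genes (89.5%) and 6 of 8 assembly factors (75%), against 35.8% of all genes tested. DESeq2 called 4 of the 47 Nduf genes as higher on the same genes, Ndufv1, Ndufb8 and Ndufa10 among them, beside 855 of all 12124 genes. Run on every gene with a count, it called 24 Nduf genes, beside 2619 of 42045 genes, and the median of all genes was -1.07. Leaving out the first or the second CPEB1 IP library gave an Nduf median of 0.43 or 0.39, against -0.02 or -0.03 over all genes, by edgeR.

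Expression level moved with this comparison. Across all 12124 genes tested the log2 fold change was larger at higher mean input CPM (Spearman's rho 0.55, a description across genes that share the libraries), whereas across the 47 Nduf genes rho was 0.13. Among all genes with an input CPM of 30 to 100, the median was 0.13 and 16.4% were higher, beside a median of 0.31 and 6 of 28 for the Nduf genes of that band. At 100 to 300 CPM the median was 0.28 and 41.9% were higher, beside 0.62 and 8 of 9 for the Nduf genes. The part of expression level in the result was not otherwise tested.

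The core subunits come first. Ndufv1, which binds NADH and the flavin, had 189 and 162 CPM in CPEB1 IP, 89.6 and 80.8 in IgG, with 158 and 187 in input. CPEB1 IP and input thus overlapped and IgG was low in both libraries. Ndufv1 (ENSMUSG00000037916.14, chr19:4007384-4012806, minus strand) was higher in CPEB1 IP than in IgG by a log2 fold change of 0.97 ± 0.13 (SE, n = 2 libraries each, edgeR adjusted p = 2.37e-05), and this call held in all alternatives, the largest adjusted p being 0.00113.

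Ndufs7, which carries an iron-sulfur cluster at the ubiquinone site, had 77.5 and 76.6 CPM in CPEB1 IP, 41.8 and 50.3 in IgG, with 90.5 and 92.3 in input, with CPEB1 IP between the others and no overlap. It was higher by 0.67 ± 0.17 (edgeR adjusted p = 0.00409), and Ndufs8, which carries iron-sulfur clusters of the Q module, by 0.62 ± 0.17 (adjusted p = 0.00812). DESeq2 on the same genes called neither (adjusted p = 0.0575 and 0.0947), nor Ndufv2, Ndufa5, Ndufa8 and Ndufa9 below (adjusted p 0.063 to 0.209), and on every gene with a count it called all 6. Ndufv2, an iron-sulfur subunit of the N module, had 93.7 and 95.8 CPM in CPEB1 IP, 65.3 and 70.7 in IgG, with 115 and 138 in input, and was higher by 0.41 ± 0.15 (edgeR adjusted p = 0.0326). Its call was lost without either CPEB1 IP library or the first IgG library (adjusted p 0.0742 to 0.216, edgeR), and that of Ndufs8 without the second CPEB1 IP library (adjusted p = 0.243). For Ndufs1, also an iron-sulfur subunit of the N module, and Ndufs3, a Q module subunit, the values were 0.27 ± 0.15 and 0.06 ± 0.20, not called (edgeR adjusted p = 0.199 and 0.854). So 5 of 7 core subunits were higher, with a median of 0.62 over the 7.

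The accessory subunits follow by their place in the complex. Both of the Q module were higher, Ndufa5 by 0.77 ± 0.22 and Ndufa9, which sits where the peripheral and membrane arms meet, by 0.63 ± 0.21 (edgeR adjusted p = 0.00925 and 0.026). Ndufa5 lost its call without the first CPEB1 IP library (adjusted p = 0.0688, edgeR) and Ndufa9 without either (adjusted p = 0.082 and 0.178). None of the 7 of the N module was called by edgeR or by DESeq2 on the same genes, with 2 at an unadjusted p under 0.05 by edgeR and a median of 0.30. Among them, Ndufs4 had 32.1 and 32.6 CPM in CPEB1 IP against 39.5 and 42.2 in IgG, a log2 fold change of -0.40 ± 0.21 that was not called (edgeR adjusted p = 0.155). Differences between the modules were not tested.

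In the membrane arm, 3 of 9 proximal subunits (Ndufa8, Ndufa10 and Ndufa13) and 4 of 10 distal ones (Ndufb4, Ndufb6, Ndufb8 and Ndufb10) were higher, with medians of 0.42 and 0.34. The proximal subunit Ndufa8 had a log2 fold change of 0.78 ± 0.20 (edgeR adjusted p = 0.00428), not called without the second CPEB1 IP library (adjusted p = 0.0752). Ndufa10, with 121 and 130 CPM in CPEB1 IP against 93.4 and 59.0 in IgG, had 0.66 ± 0.16 (edgeR adjusted p = 0.0035), and 0.41 without the second IgG library, where it was not called (adjusted p = 0.0643). Ndufb4 had the largest of the distal part at 0.91 ± 0.32 (edgeR adjusted p = 0.0355), from 23.7 and 21.9 CPM in CPEB1 IP and 11.4 and 11.7 in IgG, and lost its call whenever any 1 of the 4 libraries was left out (adjusted p 0.0697 to 0.128, edgeR) and with DESeq2 (adjusted p = 0.192). Ndufb8, with 155 and 167 CPM in CPEB1 IP, 105 and 91.8 in IgG, with 117 and 126 in input, was the only member called as higher in CPEB1 IP over both IgG (0.65 ± 0.13, edgeR adjusted p = 0.000548) and input (0.46 ± 0.14, adjusted p = 0.0205). The call over input was lost without the first or the second CPEB1 IP library (adjusted p = 0.132 and 0.369, edgeR), with no filter (adjusted p = 0.0551) and with DESeq2 on every gene with a count (adjusted p = 0.0774).

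Ndufa11, a proximal membrane arm subunit that the study lists among its CPEB1 targets, had 54.2 and 46.4 CPM in CPEB1 IP, 32.7 and 34.2 in IgG, with 48.2 and 54.2 in input. Both CPEB1 IP libraries exceeded both IgG libraries and overlapped input. The log2 fold change over IgG was 0.51 ± 0.20, just outside the threshold (edgeR adjusted p = 0.0605), though it was called with no filter (adjusted p = 0.00424) and by DESeq2 on every gene with a count (adjusted p = 0.0216). Its exons overlap those of Vmac. Ndufab1, the mitochondrial acyl carrier protein, had 0.19 ± 0.17 (edgeR adjusted p = 0.428), and Ndufa4 had 0.25 ± 0.15 (adjusted p = 0.212). Ndufa4l2 rested on 3 and 5 counts in IgG against 17 and 45 in CPEB1 IP, and its 1.41 ± 0.55 was not called (edgeR adjusted p = 0.051).

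**Figure D2:**
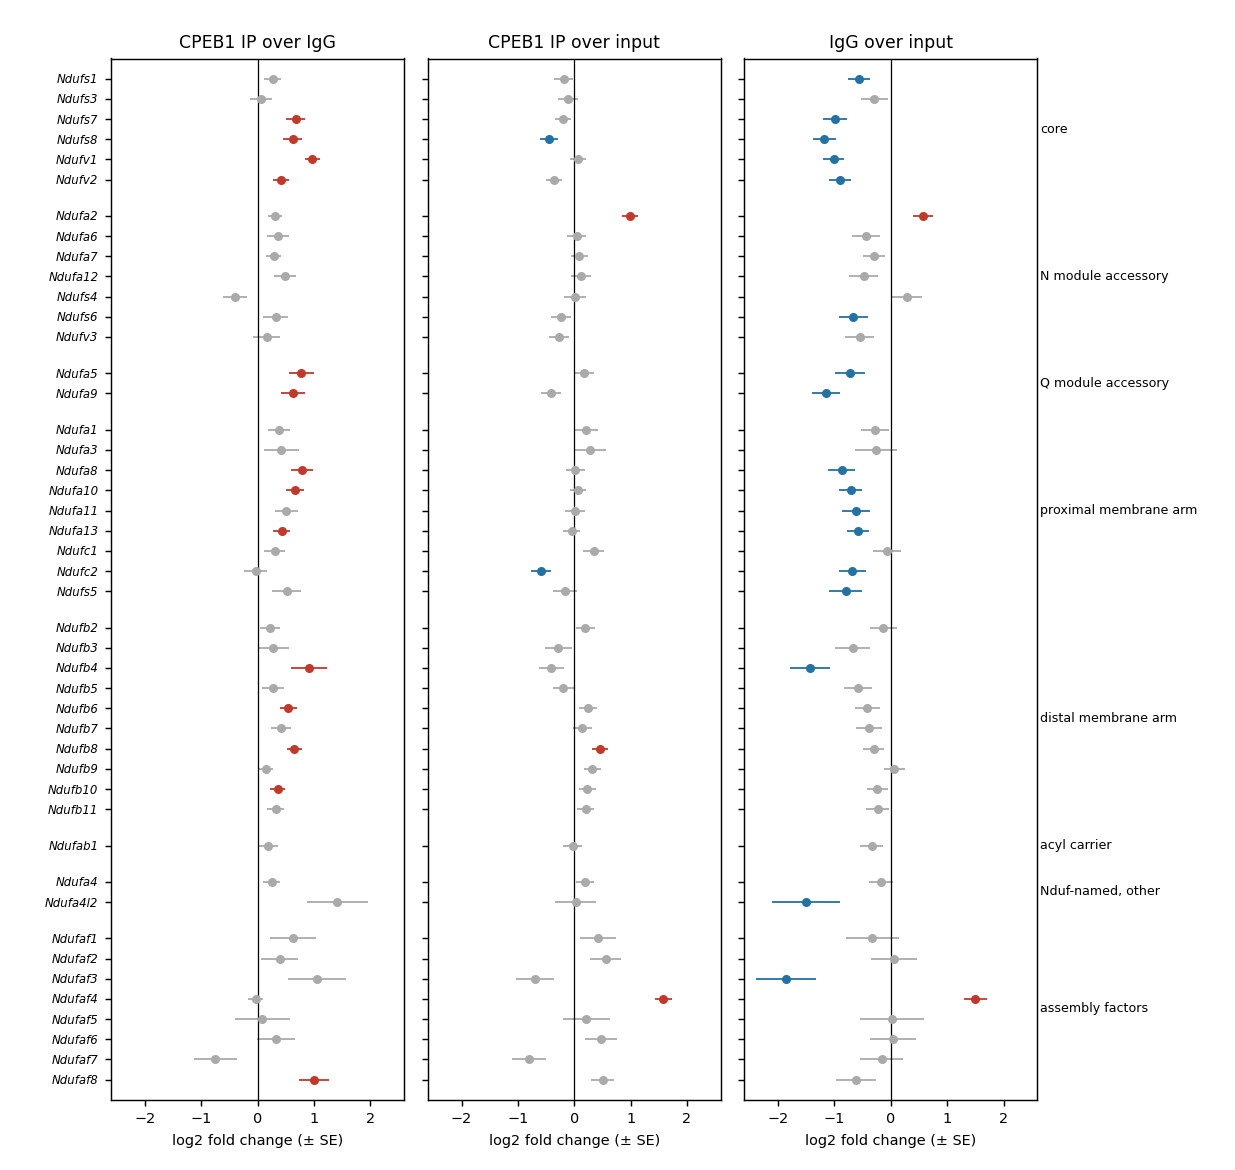
Log2 fold changes (points) with their SE (lines) from edgeR for 45 Nduf genes in the 3 comparisons, ordered by role; red marks genes called as higher, blue genes called as lower, grey genes not called. Most subunits are right of 0 against IgG, spread around 0 against input, and left of 0 for IgG over input.

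Of the 8 assembly factors, only Ndufaf8 was called in CPEB1 IP over IgG. Ndufaf8 (ENSMUSG00000078572.3, chr11:120098928-120100705, plus strand), the partner of Ndufaf5, had 33.7 and 33.4 CPM in CPEB1 IP, 16.7 and 15.3 in IgG, with 23.6 and 25.5 in input. The 3 groups did not overlap, and CPEB1 IP was the highest. It was higher than in IgG by 1.002 ± 0.27 (edgeR adjusted p = 0.00654), a call that DESeq2 on the same genes did not make (adjusted p = 0.0716).

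The other 7 factors were not called, at between 3.04 and 20.8 CPM except for Ndufaf4. Ndufaf3, an early assembly factor, had 7.92 and 8.26 CPM in CPEB1 IP and 3.04 and 4.37 in IgG, from 4 and 6 counts, with 1.05 ± 0.51 (edgeR adjusted p = 0.125). Ndufaf1, which acts with the membrane arm intermediates, had 0.63 ± 0.40 (adjusted p = 0.252, edgeR). Ndufaf7, a methyltransferase that acts on complex I, lay on the other side at -0.75 ± 0.38 (edgeR adjusted p = 0.141), with 7.92 and 10.1 CPM in CPEB1 IP against 12.2 and 17.5 in IgG.

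Ndufaf2, a late factor related to Ndufa12, had 0.39 ± 0.33, Ndufaf6 0.32 ± 0.34 and Ndufaf5, which hydroxylates Ndufs7, 0.08 ± 0.49, none of them called. The median over the factors was 0.36, and that of the 38 subunit genes 0.40. Subunits minus factors came to 0.04 in the fit, 0.27 in experiment 1 and -0.12 in experiment 2, and it ran from -0.20 without the first IgG library to 0.32 without the second, so it had no steady sign. Of 13 other complex I assembly factors such as Ecsit, Foxred1 and Timmdc1, none was called by edgeR or by DESeq2 on the same genes, with 1 at an unadjusted p under 0.05 as lower by edgeR, and their median was 0.13.

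Against input, which asks how the precipitated RNA compares with the RNA of the cell, few Nduf genes were called. Of 46 Nduf genes tested, 3 were higher (background 17.0% of 12171 genes) and 3 lower (background 15.8%), and the median was 0.06 against -0.00 over all genes tested. The 38 subunit genes had a median of 0.02 and the 8 factors of 0.45. Both CPEB1 IP libraries were above both input libraries in 5 of the 8 factors (62.5%) and 5 of the 38 subunit genes (13.2%), against 31.3% of all genes tested. The 2 input libraries differed for these genes: 35 of 38 subunit genes were higher in input 2, by a median log2 ratio of 0.27, against 0.03 over all genes. Without input 1 the Nduf median became -0.08, and without input 2 it became 0.17, against -0.00 and -0.01 over all genes tested.

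Ndufaf4 and Ndufa2 stood apart from the other members. Ndufaf4 (ENSMUSG00000028261.13, chr4:24898083-24905001, plus strand), an early assembly factor that works with Ndufaf3 and holds the 4 CPEs shown above, had 129 and 118 CPM in CPEB1 IP, 110 and 130 in IgG, with 42.7 and 42.5 in input. Both precipitates were well above input and overlapped each other. Its log2 fold change was 1.58 ± 0.15 for CPEB1 IP over input (edgeR adjusted p = 1.6e-05), 1.496 ± 0.20 for IgG over input (adjusted p = 1.87e-07), and -0.04 ± 0.13 for CPEB1 IP over IgG (adjusted p = 0.86).

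Ndufa2, an N module subunit with the fold of a thioredoxin (ENSMUSG00000014294.4, chr18:36742332-36744557, minus strand), had 183 and 185 CPM in CPEB1 IP, 127 and 158 in IgG, with 86.9 and 106 in input. The 3 groups did not overlap, with input lowest. It was higher than input by 0.99 ± 0.14 in CPEB1 IP (edgeR adjusted p = 0.00026) and by 0.57 ± 0.18 in IgG (adjusted p = 0.0112), the latter no longer called without the second IgG library (adjusted p = 0.325). Over IgG it had 0.30 ± 0.12 in CPEB1 IP, not called (edgeR adjusted p = 0.0587), though 4 alternatives called it, with DESeq2 on every gene with a count at an adjusted p of 0.000734 and edgeR without the second IgG library at 0.0141. Its exons overlap those of Tmco6. Because both comparisons with input share the same 2 input libraries, an odd input value would move both.

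Among the 3 members lower in CPEB1 IP than in input were Ndufc2, a proximal membrane arm subunit, by -0.60 ± 0.18 on the log2 scale (edgeR adjusted p = 0.0213), and Ndufs8 by -0.45 ± 0.16 (adjusted p = 0.044). Ndufc2 had 41.2 and 38.8 CPM in CPEB1 IP, 34.9 and 43.0 in IgG, with 55.2 and 69.9 in input, the precipitates overlapping each other below input. Ndufs8 had 70.4 and 87.5 CPM in CPEB1 IP, 49.4 and 50.3 in IgG, with 117 and 108 in input, with no overlap. The call on Ndufs8 was lost in 6 of the alternatives (adjusted p up to 0.461) and that on Ndufc2 in 5 (up to 0.178).

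**Figure D3:**
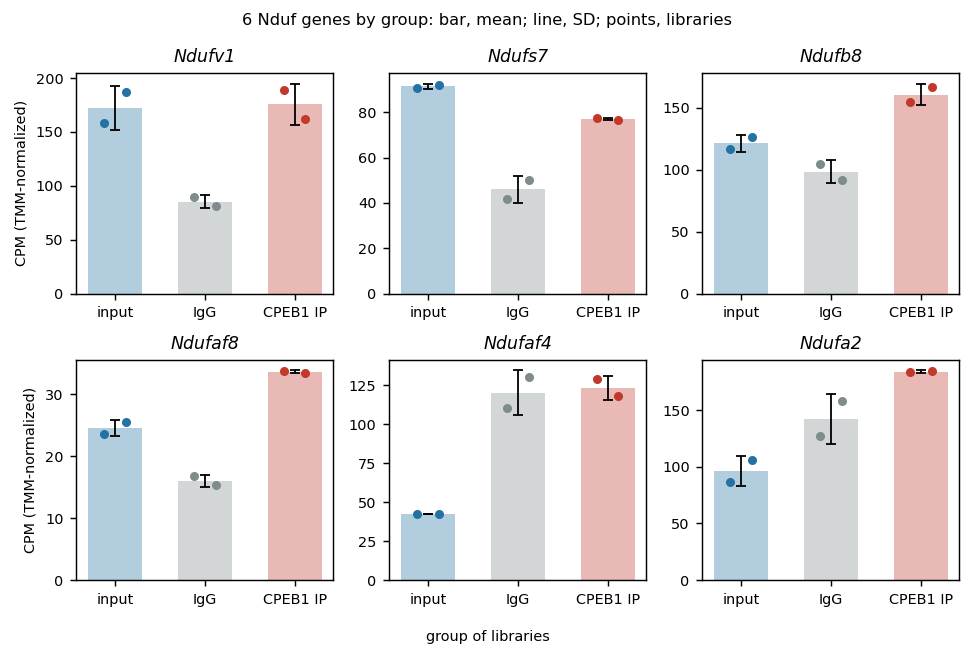
CPM (TMM-normalized) of 6 Nduf genes in input, IgG and CPEB1 IP; bars are means, lines the SD and points the 2 libraries of a group. Ndufv1, Ndufs7, Ndufb8 and Ndufaf8 have their lowest values in IgG, Ndufaf4 and Ndufa2 in input.

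IgG against input measures the background of the precipitation, and here more members were called than in the other comparisons. Of 47 Nduf genes tested, 18 were lower in IgG (background 19.4% of 12980 genes) and 3 were higher (background 21.4%), with a median of -0.43 against 0.03 over all genes tested. Lower values were called for 6 of 7 core subunits, 2 of 2 of the Q module, 6 of 9 of the proximal and 1 of 10 of the distal membrane arm, 1 of 7 of the N module (Ndufs6), and for Ndufa4l2 and Ndufaf3. The 3 higher members were Ndufaf4, Ndufa2 and the pseudogene Ndufa11b. IgG had the lowest mean of the 3 groups in 35 of 38 subunit genes (92.1%) and in 3 of 8 assembly factors, against 37% of all genes tested. The count of 18 was 9 with DESeq2 on the same genes, where 1596 of all 12980 genes were lower. With a library left out the Nduf median ran from -0.58 to -0.33.

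Among the core subunits, Ndufs8 was at -1.18 ± 0.20 in IgG over input (edgeR adjusted p = 1.21e-05), Ndufv1 at -1.02 ± 0.18, Ndufs7 at -0.99 ± 0.21, Ndufv2 at -0.90 ± 0.19 and Ndufs1 at -0.57 ± 0.20, each called, and Ndufs3 at -0.29 ± 0.24, not called. Without the second IgG or the second input library Ndufs1 lost its call (edgeR adjusted p = 0.283 and 0.208). Of the other subunits, Ndufb4 was at -1.44 ± 0.36 (edgeR adjusted p = 0.00123) and Ndufa9 at -1.16 ± 0.25 (adjusted p = 0.000262). Of the factors, Ndufaf3 was lower by -1.87 ± 0.53 (edgeR adjusted p = 0.00471), not called without the first IgG or the second input library (adjusted p = 0.0502 and 0.0779), while Ndufaf1, Ndufaf2, Ndufaf5, Ndufaf6, Ndufaf7 and Ndufaf8 were not called.

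Among all genes with an input CPM of 100 to 300, IgG was lower than input for 43.2%, with a median of -0.33, beside 7 of 9 and -0.71 for the Nduf genes. Input CPM is part of this ratio, so the band and the fold change are not independent. IgG libraries held counts on 32328 and 32381 genes, input libraries on 20158 and 21150.

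The processed pseudogenes had few counts. Ndufa11b, a copy of Ndufa11, had 4 and 10 counts in CPEB1 IP, 10 and 8 in IgG, with 3 and 5 in input. It was the 1 member called as lower in CPEB1 IP over IgG (-1.84 ± 0.50, edgeR adjusted p = 0.00757) and was called as higher in IgG over input (2.38 ± 0.63, adjusted p = 0.00239). The first call was lost in 7 alternatives and the second in 5, and reads of such a copy cannot be told apart for certain from those of its parent gene. Ndufs6b, with 2 to 13 counts a library, and Ndufb4c, with 0 to 2, did not pass the filter in any comparison, nor did Ndufa11b in CPEB1 IP over input.

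Summed over the 38 subunit genes, CPM were 2721 and 2809 in CPEB1 IP, 1920 and 2013 in IgG, with 2564 and 3048 in input, so IgG was lowest and the others overlapped. Summed over the 8 assembly factors, they were 234 and 226 in CPEB1 IP, 188 and 204 in IgG, with 131 and 149 in input, a different order with input lowest. Ndufaf4 alone set that order: without it the other 7 summed to 105 and 108, 77.5 and 73.6, and 88.1 and 106. Subunit CPM exceeded factor CPM by a ratio of 19.6 and 20.5 in input, 11.6 and 12.4 after CPEB1 IP and 10.2 and 9.87 after IgG, and without Ndufaf4 it was between 24.8 and 29.1 in all 6 libraries.

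Among subunit genes of the other respiratory complexes, 4 of 4 of complex II, 7 of 9 of complex III, 4 of 11 of complex IV and 9 of 17 of ATP synthase were higher in CPEB1 IP than in IgG, with medians of 0.53, 0.45, 0.25 and 0.37. The background was 14.7% of all genes tested. The complex IV list holds genes named Cox5 to Cox8, without Cox4 genes or Ndufa4, and 1 of them, Cox6b2, was lower. Differences between the complexes were not tested. The 7 mitochondrially encoded subunits of complex I went the other way. Of the 6 that passed the filter, 5 were lower in CPEB1 IP than in IgG and none higher (0 at an unadjusted p under 0.05 by edgeR and 0 by DESeq2 on the same genes), with a median of -0.80, and against input 4 were lower and 1 (mt-Nd3) higher. Their summed CPM were 4922 and 3940 in CPEB1 IP, 5605 and 6268 in IgG, with 5050 and 6298 in input.

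**Figure D4:**
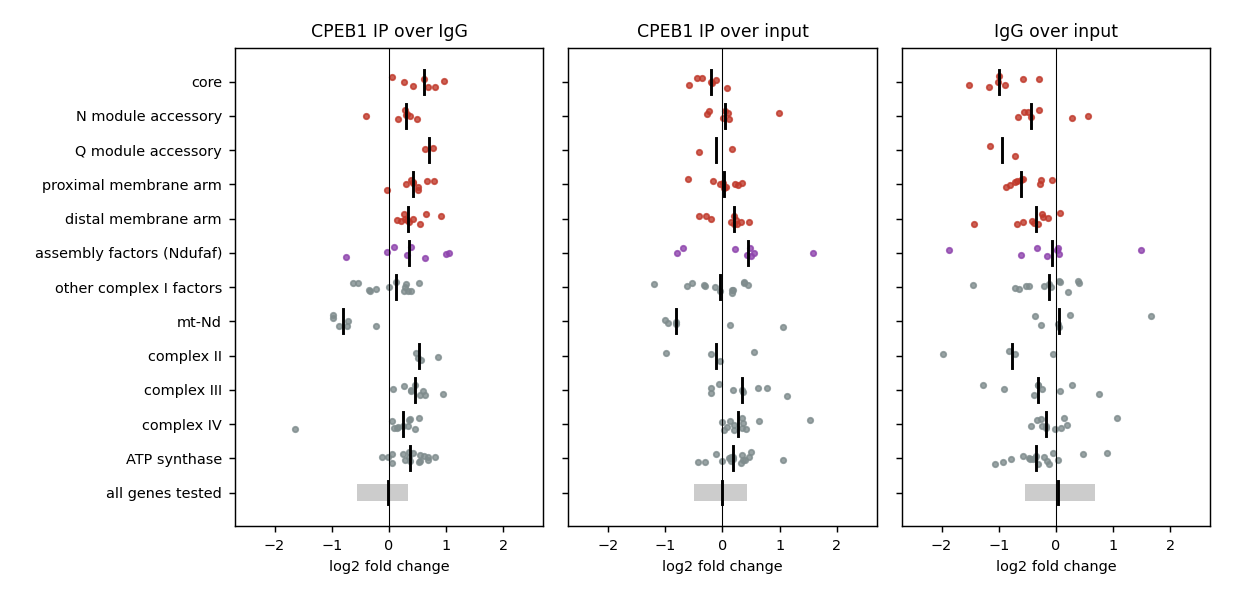
Log2 fold changes of complex I subunits by role (red), Ndufaf factors (purple) and other respiratory chain genes (grey) in the 3 comparisons; each point is a gene, the black bar the median, and the grey box spans the quartiles of all genes tested. Nuclear subunits have medians above 0 over IgG and mt-Nd genes a median of -0.80.

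Genes with and without a CPE were then set side by side. In CPEB1 IP over IgG, 3 of the 14 Nduf genes with a canonical CPE (Ndufaf8, Ndufb8 and Ndufv2) were higher, with a median log2 fold change of 0.30, and 12 of the 32 with a 3′ UTR and no canonical CPE were higher, with a median of 0.42. All 32 without a canonical CPE had a positive log2 fold change, though Ndufaf5, Ndufb5 and Ndufs6 among them hold another of the 9 motifs. Ndufs4, Ndufaf4, Ndufaf7 and Ndufc2, each with a canonical CPE, had a negative log2 fold change. In CPEB1 IP over input the order was different: the 3 genes called as higher (Ndufaf4, Ndufa2 and Ndufb8) each hold a canonical CPE, the 14 had a median of 0.27, and the 32 had none called as higher by edgeR or by DESeq2 on the same genes, with 1 at an unadjusted p under 0.05, and a median of 0.03. In IgG over input, where Ndufaf4 and Ndufa2 were also called as higher, the medians were -0.15 and -0.57. Of the 14 genes, 6 are assembly factors. Among subunit genes alone, the 8 with a canonical CPE and the 30 without had medians of 0.26 and 0.42 over IgG, of 0.10 and 0.02 for CPEB1 IP over input, and of -0.22 and -0.58 for IgG over input. The differences between the sets were not tested. Length of the longest 3′ UTR had little relation to the log2 fold change over IgG across 46 Nduf genes (rho -0.08).

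**Figure D5:**
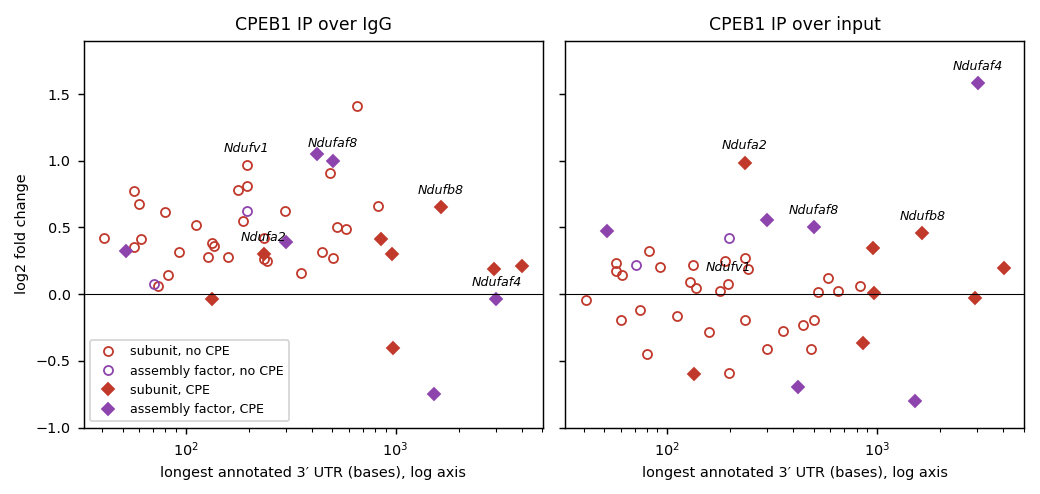
Log2 fold changes of CPEB1 IP (left panel over IgG, right panel over input) against the length of the longest annotated 3′ UTR (log axis) for the 46 Nduf genes that have one; filled diamonds hold a canonical CPE, open circles hold none, and purple marks assembly factors. Ndufaf4, Ndufa2 and Ndufb8, named in the plot, hold a canonical CPE and are the genes called as higher than input. Ndufaf4 and Ndufa2 were also called as higher in IgG than in input.

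Association with CPEB1 was scored by a rule adapted from the study's methods, with a pseudocount and with edgeR in place of DESeq2. A gene met it when FPKM plus 1 in CPEB1 IP exceeded that in IgG by a ratio over 2 in each experiment and the count test was passed. With edgeR as the count test 14 Nduf genes met both (background 12.1% of 12124 genes tested), of which 13 were subunits and 1, Ndufaf8, an assembly factor. The ratio alone exceeded 2 in both experiments for 22 Nduf genes. The same count over all genes was not taken, and their median ratios were 1.45 and 1.52, so the 22 are not read as a result. Ndufv1 had ratios of 3.24 and 3.28 and Ndufaf8 of 3.01 and 3.44, far inside, while Ndufb10, with 2.15 and 2.23, lay near the edge. Ndufa11 had ratios of 2.55 and 2.24 but missed the count test by edgeR, and Ndufa10 was called by the count test but had a ratio of 1.9998 in experiment 1, just outside.

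The library total moved this count. The deposited FPKM divide by a total of which counts on genes made up 69.5% and 69.9% in CPEB1 IP, 39.1% and 39.5% in IgG, with 71.1% and 79.8% in input. As a result the median FPKM ratio over all genes tested was 1.45 in experiment 1 and 1.52 in experiment 2, beside 2.11 and 2.23 for the Nduf genes tested. With FPKM computed from TMM library sizes these medians were 0.992 and 0.988 for all genes and 1.29 for the Nduf genes in both experiments. No Nduf gene then met both criteria, and over all genes tested the number that did fell from 1464 to 56. The ratio alone exceeded 2 in both experiments for 1 Nduf gene (Ndufa4l2, with 2.35 and 2.11). Ndufv1 had ratios of 1.99 and 1.89. With DESeq2 as the count test, and the deposited FPKM, 3 Nduf genes met both criteria on the same genes, beside 839 of all 12124 genes tested. When every gene with a count was tested, 18 Nduf genes met both, beside 1554 of 42045 genes.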

How the data were processed

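CPEB1 was immunoprecipitated from lysates of sorted satellite cells, RNA of each precipitate and of input was made into SMART-seq2 libraries, and these were sequenced as paired reads of 75 bases on an Illumina NextSeq. Per the submitters' processing notes and the study's methods, the authors aligned reads to mm10 (GRCm38) with HISAT2 and counted them with featureCounts, and StringTie is listed too. The annotation release, strand setting and treatment of multi-mapping reads are not given in the sources used here. The deposited tables hold, for each library, raw counts per gene and FPKM, which the authors computed from those counts, the exon length and a total for each library that exceeds its counts on genes. The ratio of FPKM plus a pseudocount of 1 was computed here.

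Counts were tested with edgeR 4.0.16 (R 4.3.3; filterByExpr, TMM, quasi-likelihood test, Benjamini-Hochberg adjustment over all genes tested, threshold 0.05), 2 groups at a time, and SE are those of the fitted log2 fold change. On simulated counts with 200 genes changed by 2 on the log2 scale, 92% were recovered with 14 false calls for CPEB1 IP over IgG (11378 genes), 87.5% with 9 for CPEB1 IP over input (11860 genes) and 78.5% with 1 for IgG over input (12171 genes). Nduf genes called as higher over IgG were so by at most 1.002, and recovery of changes of that size was not simulated. Alternatives were DESeq2 1.42.0 on the same genes and on every gene with a count, other size factors, no filter, a replicate block, all 6 libraries in 1 fit, each library left out, other FPKM pseudocounts and totals, and crossed pairs for the ratio.

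All 49 Nduf genes matched GENCODE M21 on mm10 by symbol with the same ends, and 19 have an exon that overlaps another gene. 3′ UTRs were read from its transcripts. Members, lists, markers and tests were chosen with earlier results of these data known. Genes were named by rule: the 7 core subunits, all Ndufaf genes, Ndufa11, Ndufab1, Ndufa4 and Ndufa4l2, up to 6 members called in each direction of each comparison by size of the log2 fold change, and members that did not pass the filter. Other members were named after their values were seen. The values of 1 core subunit are not reported here, though it is counted in every total. The list of other assembly factors holds 13 genes found in the tables, the mt-Nd list 7. In the simulated data and the tests, groups had 2 libraries each, so precision is set by n and, in IgG, by low counts.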

Additional observations from a re-analysis of the deposited data

How the results depend on the processing

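For CPEB1 IP over IgG, the 15 Nduf genes called as higher became 4 with DESeq2 on the same genes and 31 with no filter. They became 24 with DESeq2 on every gene with a count (an alternative chosen after seeing the data). Over all genes, the 1779 called as higher became 855 with DESeq2 on the same genes, 3513 with no filter and 2619 with DESeq2 on every gene. With a library left out the Nduf median log2 fold change ran from 0.39 to 0.50. The 1 gene called as lower became 0 in each of these fits (0 to 0 with a library left out). With no filter the median log2 fold change of all genes moved to -0.90 and with DESeq2 on every gene to -1.07, and the Nduf median lay 1.66 and 1.72 above it, against 0.39 above in the fit reported. For CPEB1 IP over input, the 3 higher became 2 to 10 and the 3 lower 0 to 9 with a library left out, and the 3 lower became 1 with DESeq2 (both forms) and 5 with all 6 libraries in 1 fit. For IgG over input, the 3 higher became 1 with DESeq2 on every gene, and the 18 lower became 9 with DESeq2 and 8 with DESeq2 on every gene. Over all genes, the 2772 higher became 1188 with DESeq2 on every gene. The 2515 lower became 1596 with DESeq2 and 1602 with DESeq2 on every gene. With a library left out the Nduf median ran from -0.58 to -0.33. The 14 associated genes became 3 with DESeq2 on the same genes, 18 with DESeq2 on every gene with a count, 0 when FPKM used TMM library sizes, 9 when the pseudocount was 5, and 6 to 17 with a library left out. The median of subunits minus that of factors ranged from -0.20 to 0.32 (CPEB1 IP over IgG) and from -0.47 to -0.23 (IgG over input) with a library left out. No result changed sign in a called value, and the cause of the differences between count tests was not tested.

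The main tests did not pair libraries by replicate number. Deviations of same-numbered libraries from their group means correlated at -0.01 (CPEB1 IP and IgG), -0.02 (CPEB1 IP and input) and 0.03 (IgG and input) over 14276 genes. The study set each IP against the IgG of its own experiment, and these correlations cannot show whether the numbers mark that pairing. With a replicate block 14 Nduf genes were higher and 1 lower in CPEB1 IP over IgG, and 3 and 2 in CPEB1 IP over input. In IgG over input they were 3 and 19, and 13 were associated. Over all genes these counts were 1739 and 2231, 1937 and 1804, and 2777 and 2681, with 1435 associated. Among the named genes the block ended 1 call, that of Ndufs8 over input (edgeR adjusted p = 0.0588; 0.00242 to 0.461 over all alternatives). Depth limits members with few counts: in IgG, Ndufa4l2 rested on 3 and 5 counts, Ndufaf3 on 4 and 6 and Ndufaf5 on 7 and 7.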
